A study of Mus musculus with 12 samples.

Results

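The 48 genes described here drive or mark the cell division cycle, and they were chosen by name: genes of DNA replication, genes of mitosis, G1 cyclins with their partners, and inhibitors of cyclin-dependent kinases. All 48 were found among the 47729 genes of the deposited count table. RNA was sequenced from uterine mesenchymal cells of Pdgfrb-BAC-eGFP female mice, in which green fluorescent protein is expressed from a large Pdgfrb-containing transgene, and cells were isolated by flow sorting after enzymatic digestion of the healthy uterus. GFPtotal (Naive in the labels, 6 libraries) holds all GFP-positive cells, that is bright perivascular cells together with dim stromal fibroblasts. GFPlow (Stromal in the labels, also given as GFPdim, 6 libraries) holds the dim cells alone. Both groups share the strain, tissue and sex, and the animals were cycling, with neither age nor cycle stage given in the labels. The share of bright cells in GFPtotal was not known here. Since no label names the animal of a library, the p-values rest on the spread among libraries, part of which may be technical.

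Cells entering division pass from G1 through DNA synthesis (S phase) and G2 into mitosis. D- and E-type cyclins with their kinases release E2F transcription factors, which switch on genes for replication origins, nucleotide supply and chromatin assembly, and a later wave of genes for the spindle, kinetochore and cytokinesis is released from repression by the DREAM complex through promoter elements called CHR. Uterine stroma is known for waves of proliferation that follow ovarian steroids, while perivascular cells have been studied as candidate progenitors of the endometrium.

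Libraries held 12631266 to 14950639 counts in GFPtotal and 14339804 to 18425596 in GFPlow, of which mitochondrial genes took 32.4% to 49.0% in GFPtotal and 35.1% to 45.7% in GFPlow. The members together took 6957 to 11420 counts of a GFPtotal library and 3375 to 6979 of a GFPlow one. GFPtotal 3, 4 and 5 lay at 102 to 107 on principal component 1, which held 34.0% of the variance, and the other 9 libraries at −64.6 to 6.66. Their mitochondrial share was 32.38% to 40.45%, against 45.31% to 48.99% in GFPtotal 1, 2 and 6. They held 20316 to 20915 genes with a count, against 19613 to 19840 in GFPtotal 1, 2 and 6. The part of these library differences in the splits described below was not tested. The count file of GFPlow 6 names its input N8 in its header, where the other 11 files name the library of their label, and it is called GFPlow 6 below on the label alone. Results are therefore also given without GFPtotal 3, 4 and 5 and without GFPlow 6. The sort was visible in the markers. Pdgfrb, the gene behind the reporter, had 78.9 to 172 CPM (counts per 1000000 of the scaled library size) in GFPtotal, against 50.7 to 87.2 CPM in GFPlow, a log2 fold change of 0.81 (SE 0.21, edgeR adjusted p = 0.0305). The sums over 10 pericyte markers were 958 to 1675 CPM in GFPtotal, against 29.2 to 68.4 CPM in GFPlow, and 7 of the 8 markers tested were higher. Smooth muscle markers summed to 417 to 687 CPM in GFPtotal, against 272 to 394 CPM in GFPlow, with 3 of 6 tested higher. Synpo2, the largest part, overlapped (264 to 346 CPM in GFPtotal, 236 to 366 CPM in GFPlow), as did Smtn. Acta2 had 35.7 to 95.6 CPM in GFPtotal, against 0.566 to 5.16 CPM in GFPlow. For Myh11 the values were 73.6 to 182 CPM in GFPtotal, against 0.316 to 9.07 CPM in GFPlow. The pericyte and smooth muscle sums moved with the groups by design, and their part in the differences below cannot be told apart from the sort. Fibroblast markers summed to 14500 to 30440 CPM in GFPtotal, where GFPtotal 3, 4 and 5 held 16910 CPM or less and the others at least 25100 CPM, and to 10150 to 17980 CPM in GFPlow. Col1a1, the largest part, had 5307 to 7603 CPM in GFPtotal 3, 4 and 5, against 11670 to 17120 CPM in GFPtotal 1, 2 and 6. Pdgfra (610.5 to 672 CPM against 335 to 392 CPM) and Dcn (2275 to 2467 CPM against 2219 to 2264 CPM) went the other way. The fibroblast sum thus joins markers of opposite sign within GFPtotal. For leukocyte markers the sums were 4.62 to 18.2 CPM in GFPtotal against 4.18 to 15.7 CPM in GFPlow, and for endothelial markers 34.5 to 63.0 CPM in GFPtotal against 39.7 to 60.3 CPM in GFPlow. For epithelial markers they were 1.87 to 42.0 CPM in GFPtotal against 8.66 to 23.4 CPM in GFPlow, and for erythroid markers 8.59 to 15.8 CPM in GFPtotal against 6.46 to 15.8 CPM in GFPlow, so that each of these 4 pairs of ranges overlapped. None of the 8 leukocyte, epithelial and erythroid markers tested was called. Of 5 endothelial markers tested, Cdh5 was lower in GFPtotal (2.86 to 7.66 CPM, against 5.05 to 39.6 CPM in GFPlow, edgeR adjusted p = 0.0374). Emcn, another of them, had 7.27 to 30.9 CPM in GFPtotal, against 1.45 to 9.86 CPM in GFPlow (edgeR adjusted p = 0.0562), so that the sum joins markers of opposite sign. The part of endothelial RNA in the results was not tested. The endothelial gene Cldn5 and the natural killer gene Nkg7 were at 0 in all 12 libraries, and the erythroid sum came from Alas2 alone. In sorted bulk samples, fewer cells of a type and less RNA per cell cannot be told apart.

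Of the genes of mitosis, 8 of 20 tested were higher in GFPtotal, led in CPM by Mki67, and of the genes of replication 1 of 14. By edgeR's quasi-likelihood test with Benjamini-Hochberg adjustment over 14523 genes and a threshold of 0.05, 9 of the 41 members that passed the low-count filter were higher in GFPtotal and 0 were lower, beside 4.55% and 0.854% of all genes tested (5.41% in either direction). The mitotic ones were Mki67, Cenpf, Cenpe, Nusap1, Ccna2, Tpx2, Kif11 and Top2a, and the replication gene was Pcna. Of the mitotic ones, Mki67, Ccna2 and Top2a are also made in S phase. Without them and Cdk1 the mitotic class held 5 calls. DESeq2 called 13 members higher, beside 7.11% of all genes, and the 9 were among them. None of 4 tested G1 members and none of 3 inhibitors was called. At an unadjusted p below 0.05 the numbers were 14 mitotic, 4 replication, 1 G1 and 1 inhibitor member, beside 19.9% of all genes tested. Of 14 replication, 4 G1 and 3 inhibitor members these are small counts, and nothing is read from them. The median log2 fold change, GFPtotal minus GFPlow, was 1.27 for the mitotic members, of which 20 of 20 were above 0, and 0.76 for the replication members, of which 12 of 14 were above 0. Over all genes tested it was −0.00060. Aurkb, with 46 counts in GFPlow 2 and at most 4 in any other GFPlow library, passed the low-count filter mainly through GFPtotal. Its sign therefore adds little to the 20 of 20. Ccnb1, Mcm3 and Rrm2 also passed the filter more through GFPtotal, with as few as 2, 0 and 1 counts in a GFPlow library. Their signs likewise add little to the 20 of 20 and the 12 of 14, and the class medians include them. Whether the mitotic and the replication members differ from each other was not tested. The filter left out Ccne1, E2f1, Cdc6, Plk1, Aurka, Birc5 and Cdc20, each with at most 46 counts in any library.

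**Figure D1:**
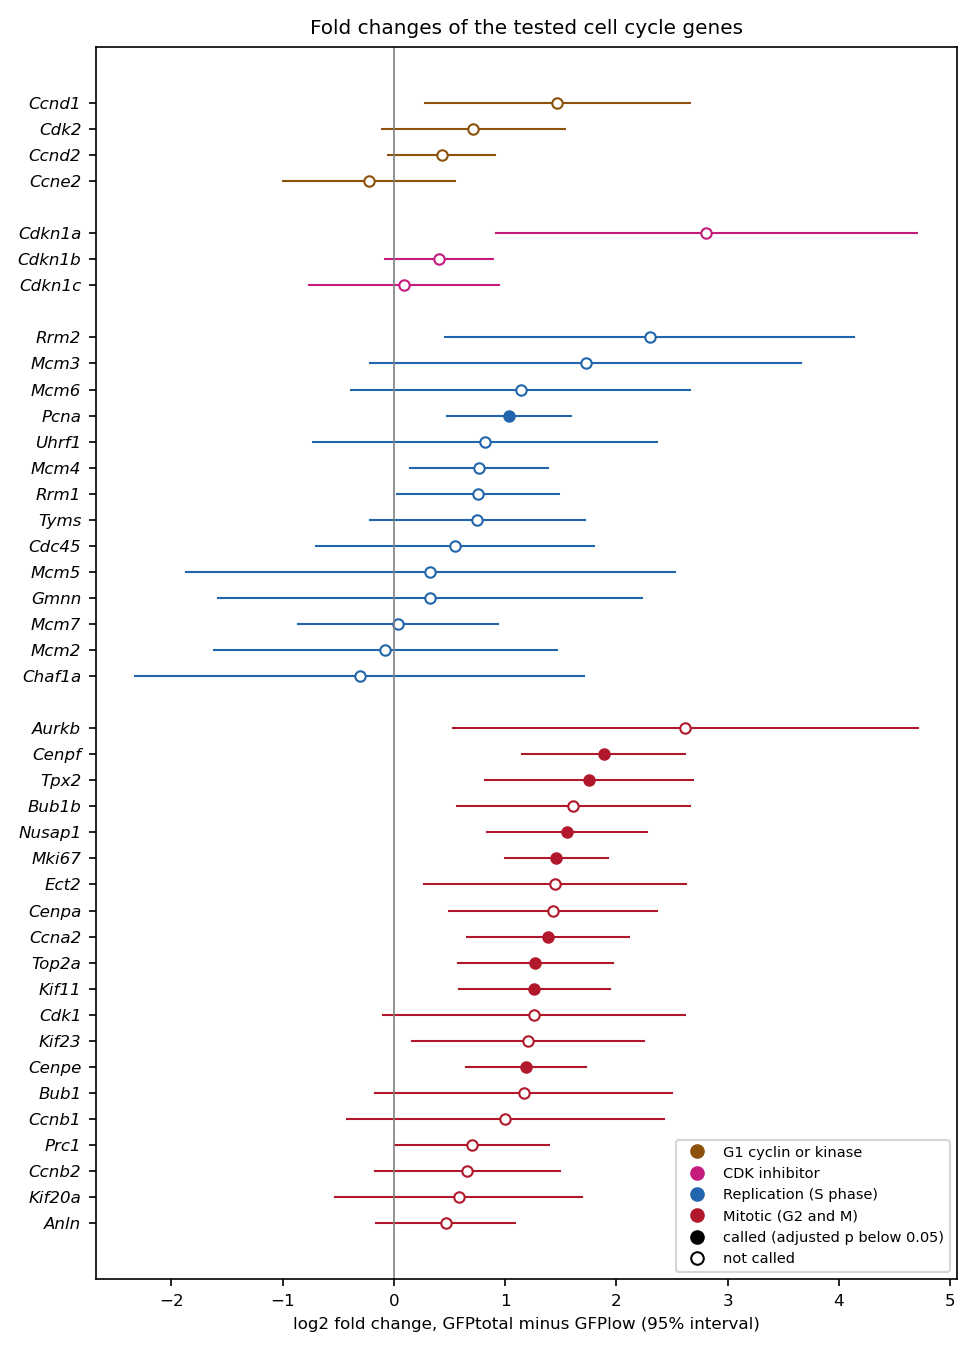
Log2 fold changes (horizontal axis, GFPtotal minus GFPlow) of the 41 tested members with their unadjusted 95% intervals, by class. Filled points passed the test; all 20 mitotic points lie right of 0, and 2 of 14 replication points lie left of it.

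The promoters of replication and mitotic genes are known for different elements. Sequences are given for 6 members that differ in them: called mitotic genes with a CHR (Mki67, Top2a, Kif11), the called replication gene Pcna, and the helicase genes Mcm6 and Mcm5, which hold E2F matches and were not called. Each line is the 200 bases before the annotated start, 5′ to 3′ on the gene's strand (RefSeq, GRCm38.p6). Capitals mark matches, on either strand, to the CHR (TTTGAA), an E2F core (TTTNNCGC) or a CCAAT box (CCAAT), which binds the factor NF-Y. The E2F core can match both strands in overlap, as the first pair in Mcm6 and the pair in Mcm5 do.
Mki67, chr7:135716380-135716579, strand -: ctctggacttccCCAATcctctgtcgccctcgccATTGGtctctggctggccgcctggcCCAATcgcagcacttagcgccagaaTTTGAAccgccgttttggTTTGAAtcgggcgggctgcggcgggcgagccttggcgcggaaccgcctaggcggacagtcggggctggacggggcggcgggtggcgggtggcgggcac
Top2a, chr11:99024190-99024389, strand -: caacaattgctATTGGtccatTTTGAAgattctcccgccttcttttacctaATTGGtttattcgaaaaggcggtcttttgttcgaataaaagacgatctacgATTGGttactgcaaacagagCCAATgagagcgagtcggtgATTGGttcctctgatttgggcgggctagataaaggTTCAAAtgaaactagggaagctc
Kif11, chr19:37376182-37376381, strand +: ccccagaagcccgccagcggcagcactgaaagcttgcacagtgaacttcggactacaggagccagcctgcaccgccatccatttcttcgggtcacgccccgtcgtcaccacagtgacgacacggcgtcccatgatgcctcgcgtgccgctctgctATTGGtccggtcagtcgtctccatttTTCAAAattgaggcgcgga
Pcna, chr2:132253181-132253380, strand -: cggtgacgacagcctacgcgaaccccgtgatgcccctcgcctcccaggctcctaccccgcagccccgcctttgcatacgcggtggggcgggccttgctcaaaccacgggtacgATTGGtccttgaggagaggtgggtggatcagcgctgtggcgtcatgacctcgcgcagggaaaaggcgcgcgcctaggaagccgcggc
Mcm6, chr1:128359706-128359905, strand -: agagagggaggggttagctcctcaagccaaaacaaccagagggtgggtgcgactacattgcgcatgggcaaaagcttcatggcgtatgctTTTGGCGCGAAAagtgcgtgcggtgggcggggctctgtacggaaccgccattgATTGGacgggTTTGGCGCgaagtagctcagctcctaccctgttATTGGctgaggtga
Mcm5, chr8:75109309-75109508, strand +: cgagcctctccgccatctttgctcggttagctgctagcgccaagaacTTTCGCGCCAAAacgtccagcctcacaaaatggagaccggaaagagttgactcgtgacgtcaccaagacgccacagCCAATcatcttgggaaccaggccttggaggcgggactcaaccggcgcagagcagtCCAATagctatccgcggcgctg

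A promoter window of 250 bases before to 50 after the start was found for 38 members by symbol. Of 20 mitotic members with a window, 15 (75.0%) held a CHR and 1 (5.0%) an E2F core. Of 13 replication members, 2 (15.4%) held a CHR and 7 (53.8%) an E2F core. Among 17491 protein-coding genes with a window the shares were 18.5% and 7.2%. The CCAAT box was present in 17 mitotic (85.0%) and 11 replication members (84.6%), against 42.3% of protein-coding genes. Mki67 held a pair of CHR matches 116 to 111 and 98 to 93 bases before its start, and Cenpf held its match just after the start, at bases 2 to 7. Of the 7 called members with a window, 4 held a CHR, 0 an E2F core and 6 a CCAAT box. Nusap1, which was called, had none of the 3 elements in this window, and Cenpe and Pcna, also called, held a CCAAT box alone. Among mitotic members with a window that were tested and not called, Anln, Bub1b, Ccnb2, Cdk1, Cenpa, Ect2, Kif23 and Prc1 held a CHR. Bub1 and Ccnb1 did not. A CHR match was thus not particular to the called members. A match is a stretch of letters and not a measured binding site.

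**Figure D2:**
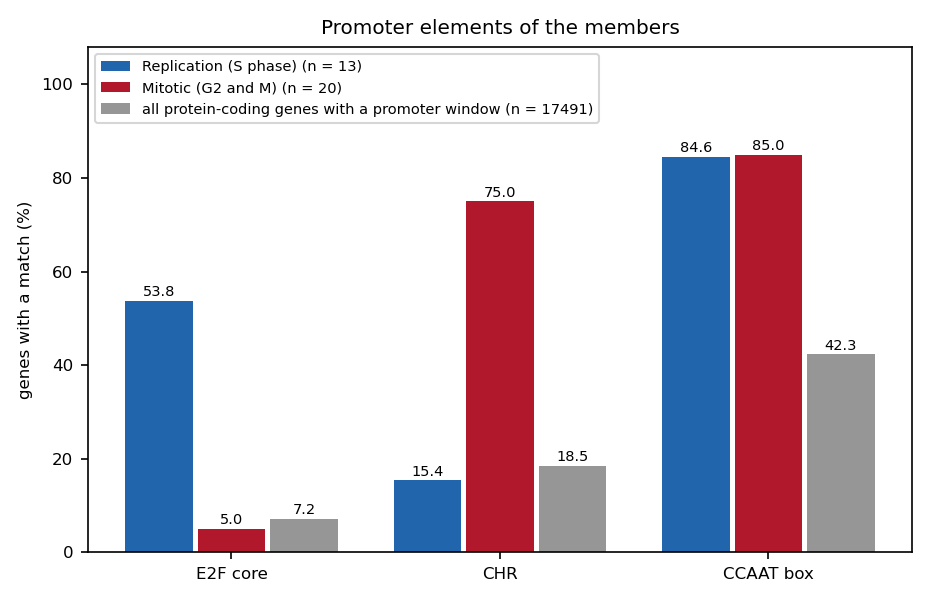
Share of genes (vertical axis, %) with at least 1 match to each element in the promoter window, for replication members, mitotic members and all protein-coding genes. CHR matches were found in 75.0% of mitotic and E2F cores in 53.8% of replication members, and the CCAAT box in about the same share of both.

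Mki67, the proliferation marker Ki-67, which coats mitotic chromosomes, took 133 to 207 CPM (median 177) over the GFPtotal libraries, against 42.1 to 110 CPM (median 52.5) over the GFPlow libraries. The groups did not overlap, and the highest GFPlow value was that of GFPlow 4. The means were 174 ± 28.5 CPM in GFPtotal, against 63.2 ± 25.2 CPM in GFPlow (SD, n = 6 each), a log2 fold change of 1.46 (SE 0.22, edgeR adjusted p = 0.000755). Cenpf, a kinetochore protein of G2 and mitosis, had 29.6 to 49.8 CPM (median 41.0) in GFPtotal, against 4.95 to 26.6 CPM (median 8.38) in GFPlow. GFPlow 4 was again the highest of its group, the other 5 lying at or below 12.3 CPM. The log2 fold change was 1.89 (SE 0.35, edgeR adjusted p = 0.00364). Nusap1, a spindle protein that binds microtubules, had 7.21 to 24.4 CPM (median 10.9) in GFPtotal, against 2.99 to 5.67 CPM (median 4.27) in GFPlow. These 3 genes were the members whose groups did not overlap, beside 2.86% of all genes tested with GFPtotal above and 0.806% with GFPlow above. The Nusap1 log2 fold change was 1.56 (SE 0.34, edgeR adjusted p = 0.0119).

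Cenpe, the kinetochore motor that aligns chromosomes, had 35.8 to 68.7 CPM (median 42.0) in GFPtotal, against 14.4 to 38.2 CPM (median 18.8) in GFPlow, where the 5 libraries other than GFPlow 4 lay at or below 19.1 CPM. GFPtotal 4 and 6 lay just under GFPlow 4. It differed by 1.19 on the log2 scale (SE 0.26, edgeR adjusted p = 0.0106). Tpx2, which activates Aurora A on the spindle, had 4.32 to 12.3 CPM (median 9.66) in GFPtotal, against 0.848 to 4.56 CPM (median 2.04) in GFPlow, with only GFPtotal 5 reaching into the GFPlow range. Its log2 fold change was 1.76 (SE 0.44, edgeR adjusted p = 0.0273). Kif11, the motor that separates spindle poles, had 9.78 to 19.6 CPM (median 15.9) in GFPtotal, against 2.62 to 11.3 CPM (median 6.27) in GFPlow. It differed by 1.26 (SE 0.32, edgeR adjusted p = 0.0289), and GFPtotal 5 and GFPlow 3 were the libraries that overlapped. Top2a, the topoisomerase that untangles sister chromatids, had 20.1 to 52.8 CPM (median 43.1) in GFPtotal, against 6.48 to 24.8 CPM (median 17.2) in GFPlow. GFPtotal 5 was the 1 library of its group within the GFPlow range. The log2 fold change was 1.27 (SE 0.33, edgeR adjusted p = 0.0306). Ccna2, cyclin A2 of S phase and G2, had 16.6 to 32.0 CPM (median 24.3) in GFPtotal, against 3.57 to 19.4 CPM (median 8.88) in GFPlow, a log2 fold change of 1.38 (SE 0.35, edgeR adjusted p = 0.0263). GFPlow 3 and GFPtotal 6 crossed. Of the exonic bases of Ccna2, 12.5% are shared with the antisense gene Exosc9, and counting did not use strand.

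**Figure D3:**
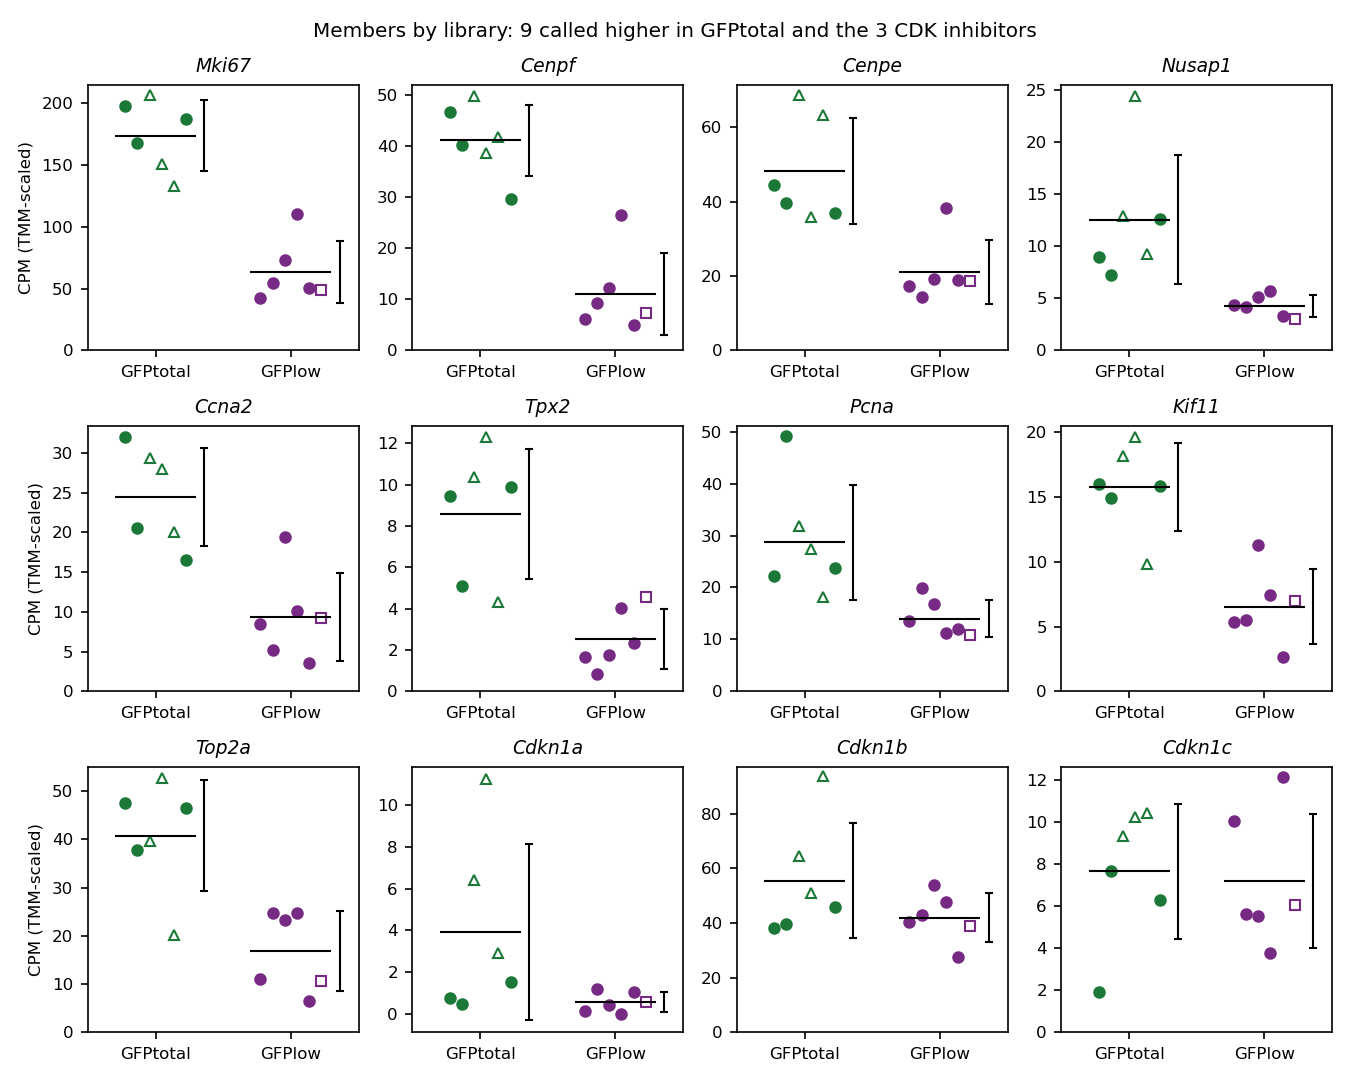
CPM (vertical axes, linear) in each library for the 9 called members and the 3 inhibitors; bars are means and whiskers SD (n = 6), open triangles GFPtotal 3, 4 and 5, and the open square GFPlow 6. Mki67, Cenpf and Nusap1 show no overlap, and the high Cdkn1a values lie in GFPtotal 3, 4 and 5.

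The 12 other tested mitotic members were not called, with log2 fold changes of 0.47 to 2.62. Aurkb, the kinase of the chromosomal passenger complex, had 0.266 to 6.94 CPM in GFPtotal, against 0 to 2.60 CPM in GFPlow, with 5 GFPlow libraries at or below 0.236 CPM (log2 fold change 2.62, SE 0.99, edgeR adjusted p = 0.144). Without GFPlow 2, which held the highest GFPlow value, Aurkb was called (4.56, edgeR adjusted p = 0.0108), and without GFPtotal 3, 4 and 5 it was not (2.15, 0.496). Bub1b, a spindle checkpoint kinase, had 2.19 to 18.5 CPM in GFPtotal, against 1.70 to 3.78 CPM in GFPlow (1.61, SE 0.50, edgeR adjusted p = 0.0688). It was at 8.08, 9.82 and 18.5 CPM in GFPtotal 3, 4 and 5, and at 4.10, 2.19 and 2.85 CPM in GFPtotal 1, 2 and 6, and it was called without GFPtotal 2 (edgeR adjusted p = 0.0319) or 6 (0.0435), while its log2 fold change was 0.27 without GFPtotal 3, 4 and 5 (0.911). Cenpa, the centromeric histone, was at 7.15, 11.3 and 19.9 CPM in GFPtotal 3, 4 and 5, at 3.64, 6.40 and 7.93 CPM in GFPtotal 1, 2 and 6, and at 1.63 to 5.25 CPM in GFPlow (log2 fold change 1.43, SE 0.44, edgeR adjusted p = 0.0706). Its log2 fold change was 1.59 without GFPtotal 1 (edgeR adjusted p = 0.0371), 1.06 without GFPtotal 5 (0.216) and 0.76 without GFPtotal 3, 4 and 5 (0.627). The mitotic kinase gene Cdk1 had 1.36 to 9.98 CPM in GFPtotal, against 0.163 to 3.71 CPM in GFPlow, and its log2 fold change of 1.26 had a 95% interval of −0.10 to 2.62. The B-type cyclin genes Ccnb1 and Ccnb2, its partners, had log2 fold changes of 1.00 and 0.66 with intervals of −0.42 to 2.43 and −0.17 to 1.49. For the cytokinesis genes Anln, Ect2, Kif23, Prc1 and Kif20a the log2 fold changes were 0.47, 1.45, 1.21, 0.70 and 0.58. Of the exonic bases of Kif20a, 33.2% are shared with the antisense gene Cdc23, and of those of Prc1, 11.1% with Rccd1. For the checkpoint kinase gene Bub1 the log2 fold change was 1.17, at 4.06 to 13.1 CPM in GFPtotal against 0.146 to 6.77 CPM in GFPlow. Plk1, Aurka, Birc5 and Cdc20, which were not tested, had 42, 35, 80 and 105 counts over the 6 GFPtotal libraries and 40, 14, 48 and 39 over the 6 GFPlow libraries.

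Pcna, the sliding clamp of DNA polymerase, was the replication member that passed the test. It had 18.1 to 49.2 CPM (median 25.6) in GFPtotal, against 10.8 to 19.9 CPM (median 12.7) in GFPlow. GFPtotal 2 was the highest library, and GFPtotal 5 lay below GFPlow 2. The log2 fold change was 1.03 (SE 0.26, edgeR adjusted p = 0.0285). The ribonucleotide reductase genes Rrm1 and Rrm2, which supply deoxynucleotides, had log2 fold changes of 0.76 (SE 0.34, edgeR adjusted p = 0.227) and 2.30 (SE 0.87, edgeR adjusted p = 0.145). That of Rrm2 was 3.15 without GFPlow 1 (edgeR adjusted p = 0.0529) and 1.73 without GFPtotal 2 (0.284). Rrm1 took 11.0 to 17.2 CPM in GFPtotal, against 3.78 to 18.2 CPM in GFPlow, where GFPlow 2 alone exceeded every GFPtotal library. Rrm2 ranged from 0.200 to 10.1 CPM in GFPtotal, against 0.0629 to 2.53 CPM in GFPlow. Tyms, thymidylate synthase, had 2.83 to 18.1 CPM in GFPtotal, against 2.64 to 8.22 CPM in GFPlow (log2 fold change 0.75).

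The 6 subunits of the MCM helicase, which work as 1 ring, had log2 fold changes of differing size. Mcm3, Mcm6 and Mcm4 had log2 fold changes of 1.72, 1.14 and 0.76, and Mcm5, Mcm7 and Mcm2 of 0.33, 0.039 and −0.076. The value of Mcm5 rested on GFPlow 1: it was 2.31 without that library and 1.97 with limma-voom, so that the order of the 6 is not firm. None was called, and the 95% intervals ran from −0.21 to 3.66 for Mcm3, from 0.14 to 1.39 for Mcm4 and from −0.86 to 0.94 for Mcm7. Mcm4 took 7.05 to 25.8 CPM in GFPtotal, against 7.91 to 13.2 CPM in GFPlow, so that only 1 GFPtotal library, GFPtotal 5, lay below every GFPlow library. Mcm6 ranged from 4.13 to 20.1 CPM in GFPtotal and from 0 to 13.5 CPM in GFPlow. Mcm5 had 0.246 to 2.55 CPM in GFPtotal, against 5.25 CPM in GFPlow 1 and at most 0.622 CPM in the other 5 GFPlow libraries. Of the exonic bases of Mcm7, 12.6% are shared with other genes, Cops6 and the microRNA genes Mir25 and Mir93 among them. Cdc45, a further part of the active helicase, differed by 0.55 (SE 0.59) at 0.732 to 2.48 CPM in GFPtotal against 0.218 to 1.83 CPM in GFPlow. Gmnn, which blocks relicensing of origins, Uhrf1, which maintains DNA methylation, and Chaf1a, which assembles chromatin on new DNA, each averaged at most 1.36 CPM in either group and had log2 fold changes of 0.32, 0.82 and −0.31. The value of Gmnn was 1.495 without GFPlow 2, 1.25 with limma-voom and −0.013 without GFPtotal 3, 4 and 5, and that of Chaf1a 0.28 without GFPlow 6. Chaf1a shares 18.7% of its exonic bases with the antisense gene Ubxn6. Cdc6, the licensing factor, was not tested and had 62 counts in all of GFPtotal and 86 in all of GFPlow.

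Calls were also counted by the level of a gene. Among 12 members of mean CPM of at least 10, 7 were called higher, beside 6.32% of all genes at that level. Of 29 members below it, 2 were called, beside 2.93%. Within the mitotic class 6 of 7 members above that level and 2 of 13 below it were called, but the median log2 fold change was 1.27 above and 1.26 below. The replication class had 3 members above, with log2 fold changes of 0.76 to 1.03 and 1 call, and 11 below, with a median of 0.55 and 0 calls. The median SE was 0.32 for the abundant and 0.50 for the other mitotic members, and 0.73 for the replication members below 10 CPM. The part of this lower level in the smaller number of replication calls was not tested.

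**Figure D4:**
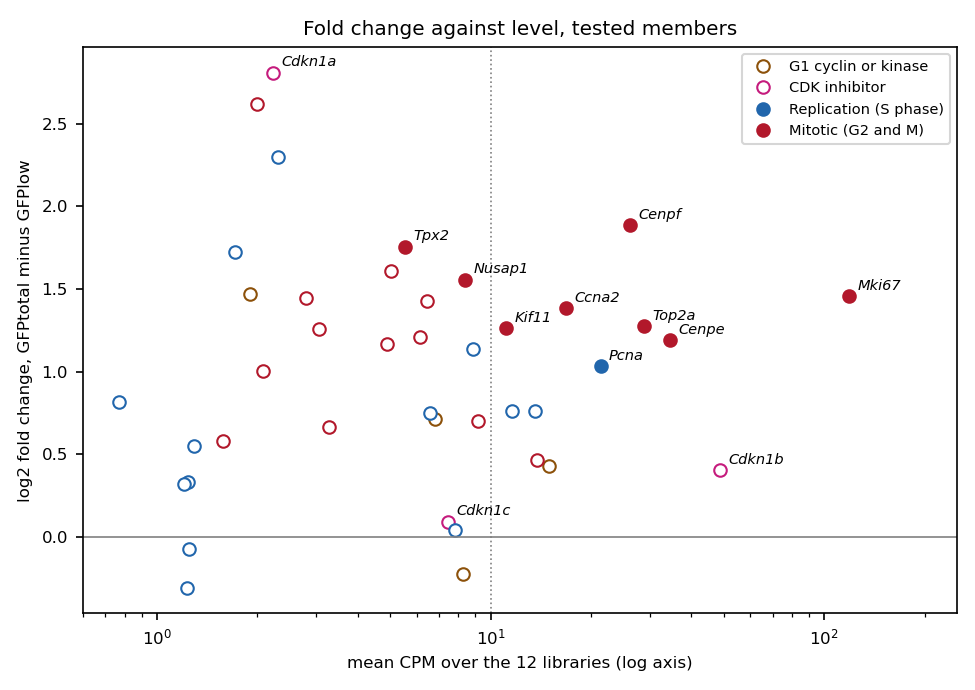
Log2 fold change (vertical axis, GFPtotal minus GFPlow) against mean CPM over the 12 libraries (horizontal axis, log scale) for the 41 tested members; filled points were called and the dotted line marks 10 CPM. Of the 9 calls, 7 lie right of the line, and below 10 CPM the replication points lie between −0.31 and 2.30.

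Library by library, the mean log2 CPM of the 20 tested mitotic members was 3.08 to 3.58 in GFPtotal and 1.45 to 2.62 in GFPlow, without overlap. For the 14 tested replication members it was 1.38 to 2.21 in GFPtotal and −0.20 to 1.68 in GFPlow, where GFPtotal 5 lay below GFPlow 1. The mitotic minus the replication mean was 1.54 ± 0.25 in GFPtotal and 1.08 ± 0.45 in GFPlow (SD, n = 6 each), with overlapping ranges of 1.19 to 1.79 in GFPtotal and 0.37 to 1.65 in GFPlow. These means describe the libraries and carry no test. GFPlow 4 was the GFPlow library highest in mitotic members and GFPlow 5 the lowest in both classes. GFPlow 5 also had the fewest genes with a count of the 12 libraries (18228). On principal component 2 it lay at −86.6, against −22.1 to 4.45 for the rest of GFPlow. The part of this in its low means was not tested. The mitotic means of GFPtotal 3, 4 and 5 were 3.52, 3.58 and 3.16. Those of GFPtotal 1, 2 and 6 were 3.39, 3.08 and 3.32, so that on this mean the 3 libraries that stood apart overlapped the rest. They did not overlap on the mitotic minus the replication mean. It was 1.76, 1.68 and 1.79 in GFPtotal 3, 4 and 5, against 1.19, 1.29 and 1.51 in GFPtotal 1, 2 and 6. The part of this split in the difference between the groups was not tested.

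**Figure D5:**
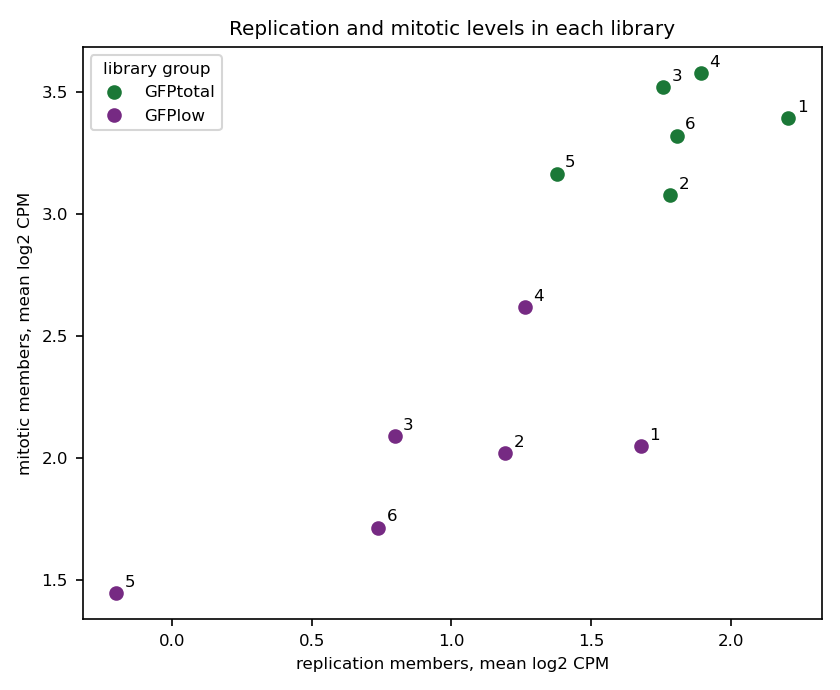
Mean log2 CPM of the mitotic members (vertical axis) against that of the replication members (horizontal axis) in each of the 12 libraries, numbered by replicate. GFPtotal libraries lie at 3.08 or above on the mitotic axis and GFPlow libraries at 2.62 or below, while the groups overlap on the replication axis.

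G1 members did not pass the test. Ccnd2, cyclin D2, had 11.4 to 21.6 CPM (median 17.5) in GFPtotal, against 9.98 to 15.1 CPM (median 12.9) in GFPlow, a log2 fold change of 0.43 (95% interval −0.048 to 0.91). Ccne2, cyclin E2, had 4.19 to 14.9 CPM (median 5.14) in GFPtotal, against 5.92 to 12.4 CPM (median 8.66) in GFPlow, a log2 fold change of −0.22 (SE 0.37), and 17.4% of its exonic bases are shared with the antisense gene Ints8. In both genes the groups overlapped. Ccnd1, cyclin D1, took 1.26 to 4.56 CPM in GFPtotal, against 0.339 to 1.90 CPM in GFPlow (1.47, SE 0.56, edgeR adjusted p = 0.151), and 23.4% of its exonic bases are shared with an antisense gene. The kinase gene Cdk2 differed by 0.72 (interval −0.11 to 1.54). Ccne1 and the transcription factor gene E2f1 had at most 9 counts in any library.

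The 3 inhibitors of cyclin-dependent kinases differed in level and in spread, and none was called. Cdkn1b, which encodes p27 of resting cells, had 38.1 to 93.9 CPM (median 48.4) in GFPtotal, against 27.7 to 54.0 CPM (median 41.6) in GFPlow (log2 fold change 0.40, SE 0.23, edgeR adjusted p = 0.356). Cdkn1c, which encodes the imprinted inhibitor p57, had 1.93 to 10.4 CPM (median 8.53) in GFPtotal, against 3.78 to 12.2 CPM (median 5.87) in GFPlow (log2 fold change 0.092, SE 0.40, edgeR adjusted p = 0.932), and 30.7% of its exonic bases are shared with an antisense gene. Cdkn1a, the p53 target that encodes p21, was at 6.43, 11.3 and 2.93 CPM in GFPtotal 3, 4 and 5, at 0.773, 0.486 and 1.51 CPM in GFPtotal 1, 2 and 6, and at 0 to 1.19 CPM in GFPlow. Its log2 fold change was 2.81 (SE 0.90, edgeR adjusted p = 0.0797), 2.12 (adjusted p = 0.232) without GFPtotal 4, and 0.72 (adjusted p = 0.877) without GFPtotal 3, 4 and 5. DESeq2 called it (adjusted p = 0.0128). Cdkn1b was at 64.5, 50.9 and 93.9 CPM in GFPtotal 3, 4 and 5, and at 38.1, 39.6 and 45.8 CPM in GFPtotal 1, 2 and 6, a split that was not tested.

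Per kilobase of exonic length, the order of levels was led by Mki67, at 17.3 ± 2.83 CPM per kilobase in GFPtotal, against 6.28 ± 2.51 in GFPlow (SD, n = 6 each). Cdkn1b followed at 12.2 ± 4.63 in GFPtotal, against 9.21 ± 1.95 in GFPlow, and Pcna at 12.0 ± 4.62 in GFPtotal, against 5.84 ± 1.51 in GFPlow. In GFPtotal these 2 lay within each other's SD. In GFPlow, Cdkn1b led and Mki67 and Pcna came next. Ccna2 (5.98 ± 1.51 CPM per kilobase in GFPtotal), Cenpe (5.58 ± 1.66), Mcm4 (4.75 ± 1.84) and Top2a (4.52 ± 1.28) lay within an SD of their neighbours. At the low end, E2f1 was at 0.0298 CPM per kilobase in GFPtotal, against 0.0284 in GFPlow.

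Further cell cycle genes outside the 48 were described by 4 lists. Of 30 other mitotic genes, 26 were tested, 2 were higher and 0 lower, at a median log2 fold change of 0.97. They were Spc25, a subunit of the outer kinetochore, at 5.42 ± 3.66 CPM in GFPtotal, against 0.388 ± 0.378 CPM in GFPlow (SD over 6 libraries), and the kinetochore scaffold Knl1. The log2 fold changes were 3.78 for Spc25 (SE 0.68, edgeR adjusted p = 0.00317, and 4.46 without GFPlow 4) and 1.34 for Knl1 (SE 0.34, edgeR adjusted p = 0.0286). Spc25 had at most 1.12 CPM in any GFPlow library, and passed the low-count filter through GFPtotal. Of 30 other replication genes, 22 were tested, with 2 higher, 0 lower and a median of 0.45. They were Pola1, the catalytic subunit of DNA polymerase alpha (1.36, SE 0.28, edgeR adjusted p = 0.00702), and the chromatin remodeller Hells (0.96, SE 0.26, edgeR adjusted p = 0.0426). Beside 4.55% of all genes, 2 of 26 and 2 of 22 are small counts, and nothing is read from them. Of 20 other G1 genes and regulators, 15 were tested and 1 was higher, at a median of 0.019. It was Cdk6, the G1 kinase that pairs with D cyclins, with 60.3 to 122 CPM in GFPtotal, against 2.49 to 18.3 CPM in GFPlow. The groups did not overlap, and its log2 fold change of 3.29 (SE 0.39, edgeR adjusted p = 0.000151) exceeded that of each member. Of 10 p53 target genes, 8 were tested and 2 were higher, the antiproliferative gene Btg2 (1.69, SE 0.28, edgeR adjusted p = 0.00185) and Trp53inp1 (1.79, SE 0.45, edgeR adjusted p = 0.0306), at a list median of 0.10. Trp53inp1 had 58.2 to 89.1 CPM in GFPtotal 3, 4 and 5, against 17.25 to 21.1 CPM in GFPtotal 1, 2 and 6. The 1 of 15 and 2 of 8 are likewise small counts beside 4.55% of all genes, and nothing is read from them.

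Without GFPtotal 3, 4 and 5, 2 members were called higher, beside 1.56% of all genes tested: Mki67 (log2 fold change 1.52, edgeR adjusted p = 0.00196) and Cenpf (1.78, adjusted p = 0.0334). The log2 fold changes were 1.36 for Top2a, 1.28 for Ccna2, 1.23 for Kif11, 1.67 for Tpx2 and 1.15 for Pcna, with adjusted p of 0.0664 to 0.178, and none of these 5 was called. Cenpe differed by 0.91 (adjusted p = 0.147) and Nusap1 by 1.15 (adjusted p = 0.209). The medians were 1.09 for the mitotic and 0.79 for the replication members. Without GFPlow 6, 5 members were called, beside 3.62%: Mki67, Cenpf, Cenpe, Nusap1 and Tpx2. Without GFPtotal 3 alone, 4 members were called, beside 2.73%, and without GFPtotal 4 alone 4, beside 3.03%. Leaving out 1 library at a time, Mki67, Cenpf, Cenpe and Nusap1 kept their calls each time. The call of Tpx2 was lost without GFPtotal 3 or 4 or GFPlow 2 or 3, and that of Ccna2 without GFPtotal 3 or 4 or GFPlow 2, 4 or 6. Kif11 lost it without GFPtotal 3 or 4 or GFPlow 1, 2, 4 or 6, Top2a without GFPtotal 3, 4 or 6 or GFPlow 1 or 6, and Pcna without GFPtotal 2, 3 or 4 or GFPlow 4, 5 or 6. Scaled by library totals alone, 5 members were called, beside 3.48%, and Ccna2, Kif11, Top2a and Pcna were not (adjusted p = 0.0536 to 0.0643, as in edgeR's test). Among the genes outside the 48, Cdk6 (2.93), Spc25 (4.21), Btg2 (1.32) and Knl1 (1.56) were called without GFPtotal 3, 4 and 5, and Pola1, Hells and Trp53inp1 were not (adjusted p = 0.0789, 0.424 and 0.689). Hells lost its call without each single library other than GFPtotal 1 or 2 or GFPlow 1, Trp53inp1 without GFPtotal 3, 4 or 5 or GFPlow 1, 2, 3, 5 or 6, and Knl1 without GFPtotal 3 or 6 or GFPlow 1, 3 or 6. Hells was also not called with RLE scaling or without mitochondrial genes (edgeR adjusted p = 0.0509 each), or with totals alone (0.0903), and neither Hells nor Trp53inp1 without the low-count filter (0.0711 each).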

How the data were processed

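Sorted uterine mesenchymal cells of 12 libraries were compared, 6 GFPtotal and 6 GFPlow. The authors deposited raw counts per gene. Per the file headers these are paired-end fragments counted over exons by featureCounts 1.6.4, on Ensembl release 84 of GRCm38, at a mapping quality of at least 10 and without strand. The submitters' processing notes name cutadapt and SAMtools; the aligner was not given there. In 12 of 12 libraries the series table matched the single files exactly. Per the labels, the libraries are named as a TruSeq DNA Nano preparation.

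From the deposited counts, genes passing filterByExpr were tested after TMM scaling with edgeR 4.0.16 (R 4.3.3, robust quasi-likelihood F test, no covariate). P-values are two-sided, adjusted by Benjamini-Hochberg at 0.05. SE is the log2 fold change divided by the square root of F, and 95% intervals are unadjusted. CPM use TMM-scaled library sizes, and log2 CPM a prior count of 2. No pair of libraries of 1 group agreed within sampling noise (chi-square per degree of freedom at least 19.5). The fit was checked on simulated counts.

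The members, lists, promoter elements and alternatives were chosen with earlier results of these data known. Text values follow a rule: members called (up to 12), the 3 inhibitors, the 2 most abundant of a class not shown, up to 3 called genes of each further list, and all other members by range and count. Single values printed for members outside this rule, such as Aurkb, Bub1b, Cenpa, Rrm1, Rrm2, Ccnd1 and Cdk2, were chosen after their values were seen, as were the single-library settings named for them. Symbols came from GENCODE M21 by Ensembl identifier. Promoters are RefSeq windows, matched by symbol. Gene positions are those of the files. Alternatives were DESeq2 1.42.0, limma-voom (limma 3.58.1), RLE and total-size scaling, no mitochondrial genes, no filter, a replicate block, each library left out, and GFPtotal 3, 4 and 5 left out.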

Additional observations from a re-analysis of the deposited data

Results flagged for a closer look

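Among 88 sets of 6 values examined, 8 had 1 library far from the other 5. For normally distributed values chance gives about 1 in 20, but CPM near 0 are skewed, so that no excess is read from the 8. Mcm5 was at 5.25 CPM in GFPlow 1, with the other GFPlow libraries at 0 to 0.622 CPM. Gmnn was at 0.0891 CPM in GFPtotal 6, with the others at 1.26 to 1.93 CPM, and at 4.07 CPM in GFPlow 2, with the others at 0 to 1.07 CPM. Aurkb was at 2.60 CPM in GFPlow 2, with the others at 0 to 0.236 CPM. Cenpe and Cenpf were at 38.2 and 26.6 CPM in GFPlow 4, with the others at 14.4 to 19.1 CPM and 4.95 to 12.3 CPM. Kif23 was at 15.3 CPM in GFPtotal 5, with the others at 5.71 to 9.20 CPM, and Nusap1 at 24.4 CPM in GFPtotal 4, with the others at 7.21 to 12.9 CPM.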

How the results depend on the processing

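Of 41 tested members, 24 kept their direction and their side of the threshold under every alternative that gave them a value, 23 of them with a value under each (Mcm5 had none without mitochondrial genes or without GFPtotal 1, and Chaf1a none without mitochondrial genes), and 2 of the 9 called members, Mki67 and Cenpf, kept the call under each. Scaled by library totals alone, 5 members, 5 mitotic and 0 replication, were called higher, and 257 genes were lower. DESeq2 called 1381 genes (1033 higher, 348 lower) and, beside the 9 members, Aurkb, Bub1b, Cdkn1a and Cenpa. Limma-voom called 273 genes lower. Without GFPtotal 3, 4 and 5 the numbers were 295 genes (245 higher, 50 lower) and 2 members, 2 mitotic and 0 replication. Leaving out 1 library each, genes called ranged from 467 to 970 (higher 406 to 791, lower 61 to 179), members higher from 4 to 10, mitotic members from 4 to 9 and replication members from 0 to 1. Of the 20 tested mitotic members, with the 4 also made in S phase left out (Mki67, Top2a, Ccna2 and Cdk1), 5 were called, beside 4.55% of all genes tested.

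Of the members not called, 6 turned direction. The log2 fold change of Mcm2 was 0.088 with limma-voom, 0.098 with the replicate block, 0.40 without GFPtotal 3, 4 and 5 and −0.48 to 0.20 without single libraries. That of Mcm7 was −0.015 with the replicate block, −0.69 without the 3 libraries and −0.29 to 0.24 without single ones. Without the 3 libraries, Cdkn1c was at −0.46, Cdkn1b at −0.047, Gmnn at −0.013 and Chaf1a at 0.37, and without single libraries Cdkn1c was at −0.043 to 0.30 and Chaf1a at −0.86 to 0.28. The cause was not tested.

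Replicate numbers did not pair the libraries: same-numbered libraries had correlations of deviations from −0.14 to 0.089, and 2 of 6 GFPtotal libraries correlated best with their own number. With the replicate block, 582 genes were called, and the 9 called members kept their calls, while Hells (adjusted p = 0.113) and Knl1 (0.0659) did not. With it, the log2 fold changes of Mcm5 and Gmnn, not called, were 1.62 and 1.07. For the 11 replication members below 10 CPM the median SE was 0.73; whether depth or spread between libraries sets it was not tested.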
